A study of Mus musculus with 24 samples.

Results

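The Hox gene clusters were examined in ATAC-seq peak lists of mouse bone marrow-derived macrophages. The members are the 39 protein-coding genes named Hoxa, Hoxb, Hoxc or Hoxd plus a number, of 21883 protein-coding genes in the RefSeq table. A peak was counted for a member where that gene's body was the nearest protein-coding gene body to the peak's summit, at a distance of at most 50 kb. This selected 396 of the 1274891 deposited peaks. Peaks were also merged across libraries, and 35 of the 80598 merged regions found in at least 2 libraries were assigned to a Hox gene in the same way. ATAC-seq uses the Tn5 transposase to insert adapters into accessible DNA. Macrophages came from male C57Bl/6 mice that were diabetic after streptozotocin, a toxin of the insulin-producing beta cells, or were untreated wild-type controls, with 6 libraries of each phenotype in each state. The states were unstimulated, and stimulated with 100 ng/mL of the bacterial product LPS plus 10 ng/mL of the cytokine IFNγ. No age was given in the sources used here, and the stimulation time is uncertain, since the treatment protocol names 6 h only for IL-1β samples. The diabetes is chemical, by a beta-cell toxin, and all macrophages were differentiated in culture, which limits the model. Per the series description, the cells of every mouse sample were divided between both states, so the states share their source, but no label ties a replicate number to a mouse and the libraries were tested as separate samples. The 24 libraries were called separately and held 41385 to 61861 peaks. The lowest background level, the weakest local background in tags among 5000 randomly drawn peaks of a list, was taken as relative depth. Read totals are not stated. This level ranged from 0.664 to 1.01 tags, and its 3 highest values belonged to stimulated libraries (control replicate 6 and diabetic replicates 1 and 3). Of 10 macrophage marker genes, 9 had a peak in every library.

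Hox genes encode homeodomain transcription factors that give cells along the embryo's body axis their position. In each cluster the genes lie in paralog order, and those at the low-number end are expressed earlier and further towards the head. In blood, Hoxa9 and Hoxb4 are known from stem and progenitor cells, and Hox expression generally falls as myeloid cells mature. Polycomb complexes keep silent Hox clusters in a compact state, and Trithorax or MLL complexes keep active ones open.

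Promoter sequences are shown first because few of the promoter windows on hand overlapped a peak. The RefSeq promoter table (GRCm38.p6, the chromosomes of mm10) held 24 windows for 22 of the 39 Hox genes, each from 250 bases before to 50 after a start. Below, CpG dinucleotides are in capitals and all other bases in lower case, 5′ to 3′ along the gene's strand. Hoxb4, a factor known for expanding blood stem cells, has its window at chr11:96318017-96318316 (+ strand), beside a region open in every library. Hoxd1 (chr2:74762730-74763029 (+ strand)) had the most libraries with a peak in its window. Hoxa13, a gene of distal limb and hindgut patterning (chr6:52260831-52261130 (- strand)), has the window with the most CpGs. Hoxb1, a hindbrain segment gene (chr11:96365508-96365807 (+ strand)), is the Hox gene whose assigned peaks increased most in number after stimulation.
Hoxb4 promoter: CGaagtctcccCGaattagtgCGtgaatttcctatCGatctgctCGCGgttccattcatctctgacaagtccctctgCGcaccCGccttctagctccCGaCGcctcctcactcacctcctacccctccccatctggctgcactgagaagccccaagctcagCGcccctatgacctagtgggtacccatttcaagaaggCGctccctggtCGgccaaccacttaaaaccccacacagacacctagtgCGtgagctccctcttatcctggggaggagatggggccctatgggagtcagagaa
Hoxd1 promoter: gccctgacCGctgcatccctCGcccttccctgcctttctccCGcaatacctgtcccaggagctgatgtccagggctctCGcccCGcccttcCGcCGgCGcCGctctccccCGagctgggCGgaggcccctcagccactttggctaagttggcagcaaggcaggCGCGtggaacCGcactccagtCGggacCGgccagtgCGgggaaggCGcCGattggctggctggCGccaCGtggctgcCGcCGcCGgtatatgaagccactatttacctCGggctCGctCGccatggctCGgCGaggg
Hoxa13 promoter: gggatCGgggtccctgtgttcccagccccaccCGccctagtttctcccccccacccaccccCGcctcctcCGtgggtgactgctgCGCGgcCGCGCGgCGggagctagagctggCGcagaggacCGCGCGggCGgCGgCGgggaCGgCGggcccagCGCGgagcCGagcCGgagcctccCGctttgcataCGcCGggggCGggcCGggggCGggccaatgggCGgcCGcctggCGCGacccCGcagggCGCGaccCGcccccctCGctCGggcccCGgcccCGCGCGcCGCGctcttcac
Hoxb1 promoter: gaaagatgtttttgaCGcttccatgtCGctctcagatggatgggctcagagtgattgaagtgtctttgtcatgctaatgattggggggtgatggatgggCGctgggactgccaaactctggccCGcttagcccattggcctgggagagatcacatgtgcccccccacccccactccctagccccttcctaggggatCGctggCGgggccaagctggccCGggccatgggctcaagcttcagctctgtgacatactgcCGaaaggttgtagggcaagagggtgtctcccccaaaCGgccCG

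These windows hold 14, 29, 45 and 10 CpGs, in the order printed. A peak overlapped the Hoxd1 window in 3 of 24 libraries and the Hoxb4, Hoxa13 and Hoxb1 windows in 0 of 24. Over the 24 Hox windows, 5 (20.8%) overlapped a peak in any library and none did so in all 24. Among 21229 windows of protein-coding genes, 55.6% overlapped a peak in some library and 39.9% in every library. The Hox windows were not poor in CpG: their median observed-to-expected CpG ratio was 0.626, against 0.566 for the protein-coding windows. The other 4 windows with a peak belonged to Hoxa3 (2 libraries), Hoxd9 (2), Hoxd10 (1) and Hoxd3 (1). Windows were on hand for 22 of the 39 genes, unevenly by cluster. In Hoxb only Hoxb1, Hoxb4 and Hoxb8 had one, and in Hoxc only Hoxc4. Genes without a window include Hoxa4, Hoxb5 and Hoxc10, which have regions close to a gene end (252 bp for Hoxb5, 180 bp for Hoxc10). The share of 20.8% therefore holds for these windows and not for all Hox promoters. The summits of 14 of 35 Hox regions were no more than 1 kb from where a gene body starts or stops. Genome-wide, with no distance limit, this held for 13730 of 80598 regions. Hox regions were selected by distance to a gene body and lie among closely packed genes, so that contrast is partly set by the selection. The homeodomain core TAATTA, which reads the same on both strands, occurred in 2 of 24 Hox windows (8.33%), both of Hoxd11. Among all protein-coding windows, 4.54% held it. The composite PBX-HOX motif TGATTNAT, searched on both strands, occurred in 2 Hox windows (8.33%), of Hoxa2 and Hoxd11, and in 2.76% of all. The PU.1 motif GAGGAAGT, on both strands, was found in 1 Hox window, that of Hoxc4 (4.17%, against 3.13% of all). These letter matches describe the windows and are not evidence of binding.

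Peaks near Hox genes were few and rarely constant. The 39 Hox genes held 396 assigned peaks, where all 21883 protein-coding genes held 1137369. At least 1 peak in some library was assigned to 30 of the 39 Hox genes (76.9%, against 77.0% of all protein-coding genes). Only 2 of them, Hoxb4 among them, had a peak in all 24 libraries, which is 5.13% of the Hox genes, where the share over all protein-coding genes was 52.4%. No peak was assigned to Hoxa2, Hoxa5, Hoxa6, Hoxa11, Hoxb13, Hoxc6, Hoxc12, Hoxc13 or Hoxd12. Assignment to the nearest body can leave a gene without a peak even where peaks lie close by. The annotated Hoxa3 body spans Hoxa4, Hoxa5 and Hoxa6 and takes the peaks between them. The Hoxd12 promoter window lies 1480 bp from a region assigned to Hoxd13. Where no peak was called at a site, signal stayed below the caller's threshold, which does not show closed chromatin. The median Hox region was found in 7 libraries, and the median region of the genome in 15.

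Hox peaks were also weak by the authors' own values. Their median fold enrichment was 5.19 and the highest was 10.3, while the median over all peaks was 6.41. Their median −log10 q-value was 5.26, against 8.62 for all peaks. Ranked within its own library's list, the median Hox peak stood at the percentile 26.9, and 80.6% of Hox peaks lay below their list's median. The Hox peaks held 5 to 33 tags at the summit, with a median of 11, as solved from the deposited fold and p-value. Peaks of the Hoxc and Hoxd clusters ranked lowest, with median percentiles of 15.3 and 20.3, and those of Hoxb and Hoxa stood at 28.5 and 32.4. Fewer cells with an open site and less accessibility per cell cannot be told apart in these bulk libraries.

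**Figure D1:**
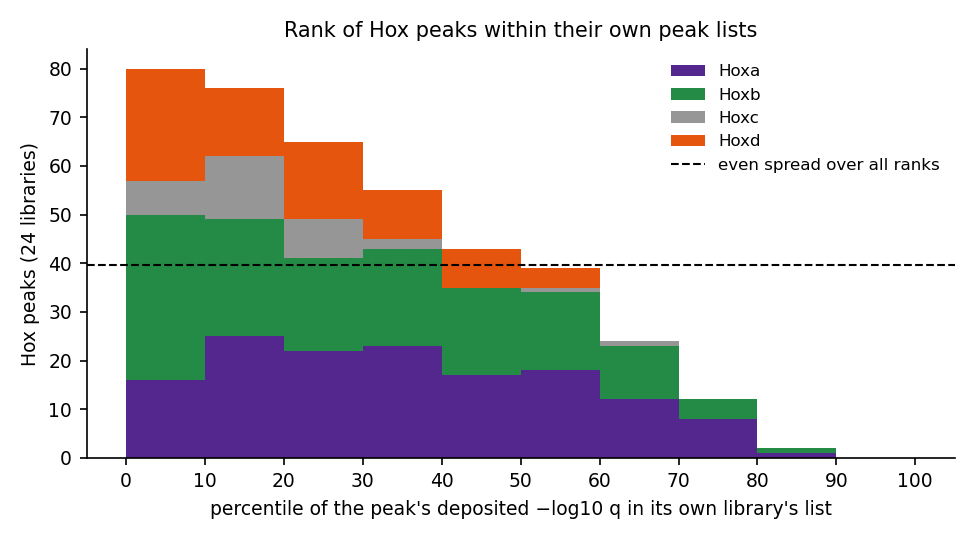
The horizontal axis is the percentile of each Hox peak's deposited −log10 q-value within its own library's list and the vertical axis the number of Hox peaks, stacked by cluster, with a dashed line for an even spread. Most of the 396 peaks lie on the left, with a median percentile of 26.9, and the highest bin is empty.

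The 4 clusters differed in how many peaks they held. The Hoxa cluster on chromosome 6 had 142 peaks, or 5.92 ± 1.56 per library (SD, n = 24), and 7 of its 11 genes had a peak. The Hoxb cluster (chr11:96194316-96368254) had 147, or 6.13 ± 2.91 per library, with peaks at 9 of 10 genes. The Hoxd cluster (chr2:74668225-74765142) had 75, or 3.13 ± 1.3 per library, at 8 of 9 genes. The Hoxc cluster (chr15:102921131-103036856) had 32, or 1.33 ± 0.917 per library, at 6 of 9 genes. Hoxc had fewer peaks than Hoxa and than Hoxb in 24 of 24 libraries. The counts include flanking DNA: 89.4% of the Hoxa peaks but only 66.7% of the Hoxb peaks lay between the ends of the cluster. Inside those ends, the density was 5.02 peaks per library per 100 kb in Hoxa, 3.18 in Hoxd, 2.35 in Hoxb and 1.04 in Hoxc. By paralog number, 253 of the 396 peaks were assigned to paralogs 1 to 4 (11 of 12 genes with a peak), 60 to paralogs 5 to 8 (8 of 11) and 83 to paralogs 9 to 13 (11 of 16). Of the 253, 49 were assigned to Hoxb1, with 0 of them in its gene body. A further 45 were assigned to Hoxa3, 43 of them in its long annotated body, which also spans Hoxa5 and Hoxa6. The split by paralog number is therefore partly set by the assignment rule.

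**Figure D2:**
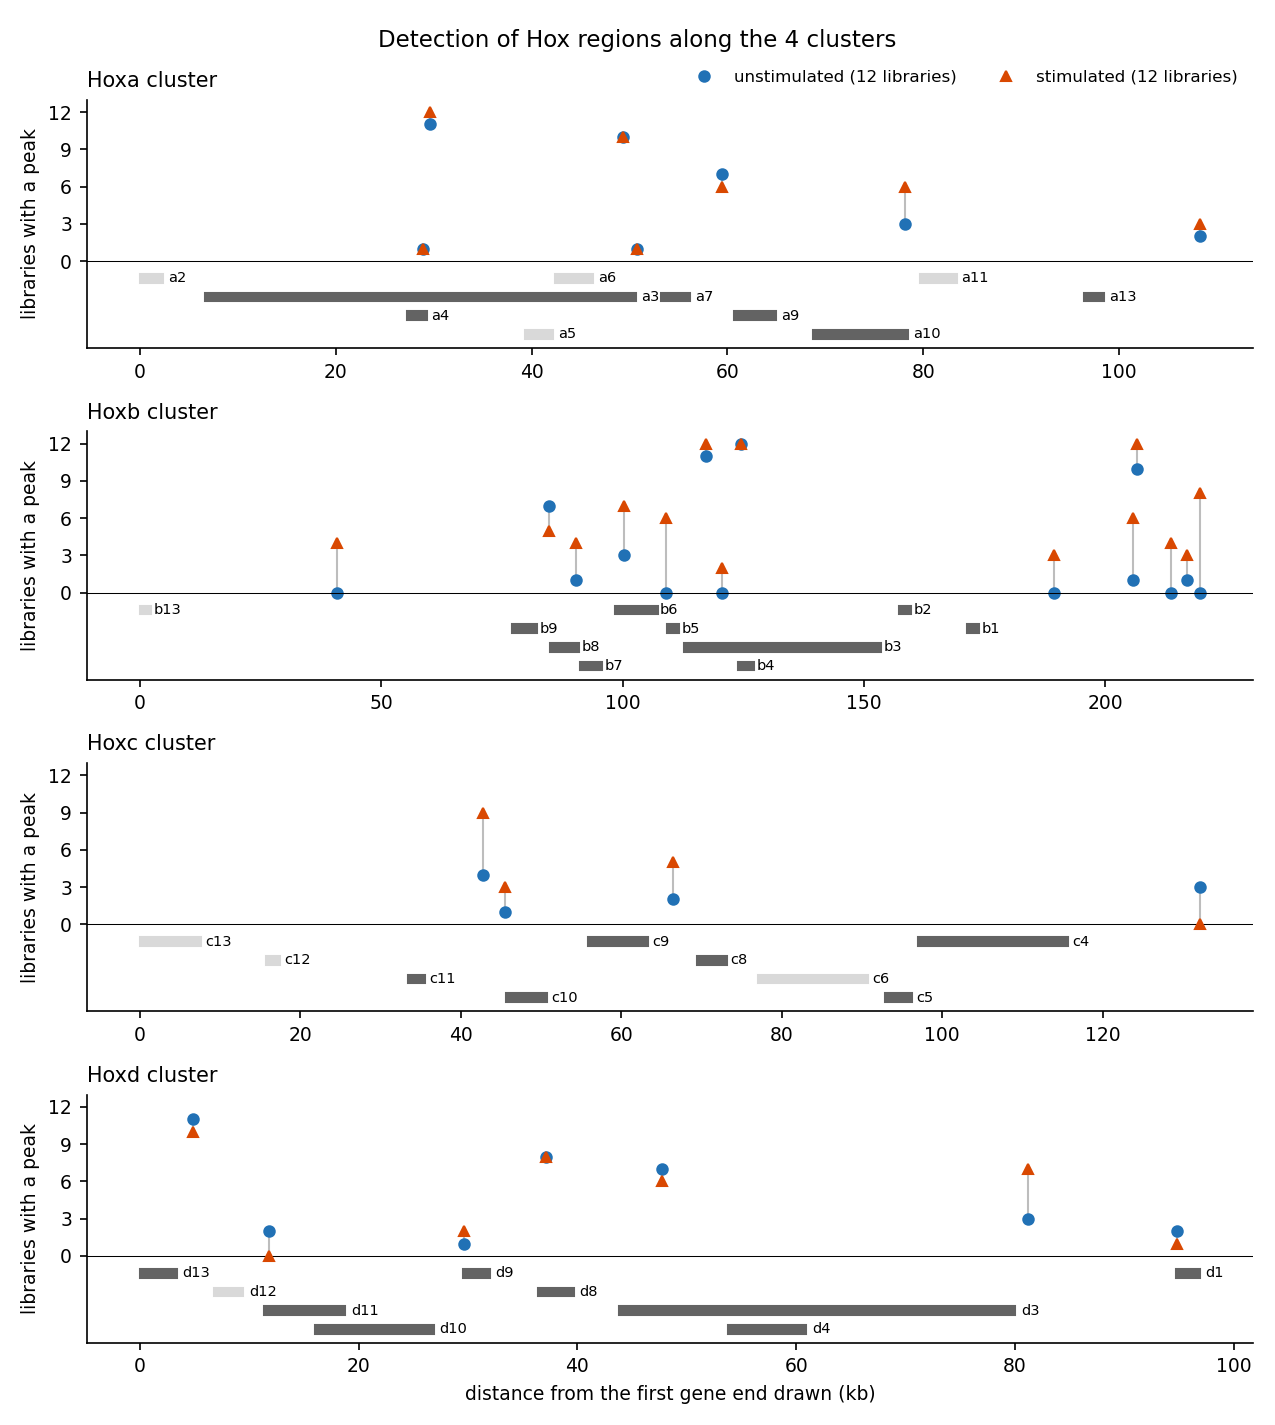
Each panel is 1 cluster, with the distance in kb from the first gene end drawn on the horizontal axis, and on the vertical axis the number of unstimulated (circles) and stimulated (triangles) libraries, of 12 each, with a peak in each Hox region. Bars below 0 are gene bodies, dark where the gene had any peak. Of the Hox regions, 32 are drawn, and those to the right of Hoxb1 were found in more stimulated than unstimulated libraries.

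In Hoxa, region 1 of Hoxa3, a pharyngeal arch patterning gene, lies at chr6:52191739-52192378, 301 bp from Hoxa4, and regions are numbered by position under their assigned gene. It was found in 23 libraries, all but diabetic unstimulated replicate 4. Hoxa3 region 2 (chr6:52211545-52211939), which overlaps the noncoding Hoxaas3, was found in 20. Hoxa9, the Hox gene best known from myeloid progenitors and leukaemia, had 1 region, 1325 bp outside its body, found in 13 libraries (4 of 6 control and 3 of 6 diabetic unstimulated, 4 and 2 stimulated). Of the 5′ genes, Hoxa10 had its region in 9 libraries, Hoxa13 in 5, and Hoxa11 had no peak. Few assigned peaks were not particular to that end: Hoxa4 had one in 2 libraries, Hoxa7 in 1, and Hoxa2, Hoxa5 and Hoxa6 in none. For Hoxa4, Hoxa5 and Hoxa6 this follows in part from the assignment, since the annotated Hoxa3 body spans them. Hoxa3 region 1, found in 23 libraries, lies beside Hoxa4 and was counted for Hoxa3 only.

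In Hoxb, Hoxb4 region 1 (chr11:96318390-96319404) was found in all 24 libraries, over the Hoxb4 gene body and Hoxb3, whose long annotated body spans Hoxb4. It begins 74 bp beyond the Hoxb4 promoter window printed above. The percentile of its best peak ran from 8.30 to 69.8 over the libraries, with group medians between 36.2 and 53.1. Hoxb3 region 1 (chr11:96311275-96311916) was found in 23 libraries, with control unstimulated replicate 4 the exception. Hoxb1 region 3 (chr11:96400755-96401161), 32701 bp from Hoxb1, was found in 22.

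The Hoxd cluster had no region in every library. Hoxd13, a gene of digit patterning, had the most frequent one, region 1 (chr2:74672838-74673283, 1496 bp from the gene body), found in 21 libraries. Hoxd8 region 1 (chr2:74705064-74705661), over the Hoxd8 body, was found in 16. In Hoxc the most frequent was Hoxc10 region 1 (chr15:102963758-102964161), 2871 bp from Hoxc10, in 13 libraries: 2 of 6 control unstimulated, 2 of 6 diabetic unstimulated, 6 of 6 control stimulated and 3 of 6 diabetic stimulated. Hoxc8 region 1 (chr15:102987491-102987798) followed with 7 libraries. Hoxc4 region 1, 16368 bp from Hoxc4, was found in 3 libraries, all diabetic unstimulated.

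The noncoding genes of the clusters included some with frequent peaks and others with none. Peaks overlapped Hoxaas3 in 20 libraries, Hoxd3os1 in 14, Hoxb5os in 12 and Haglr in 11. No library had a peak over the microRNA genes Mir196a-1, Mir196a-2, Mir196b, Mir10a, Mir10b and Mir615, or over the long noncoding Hotair, Hottip and Hoxa11os.

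**Figure D3:**
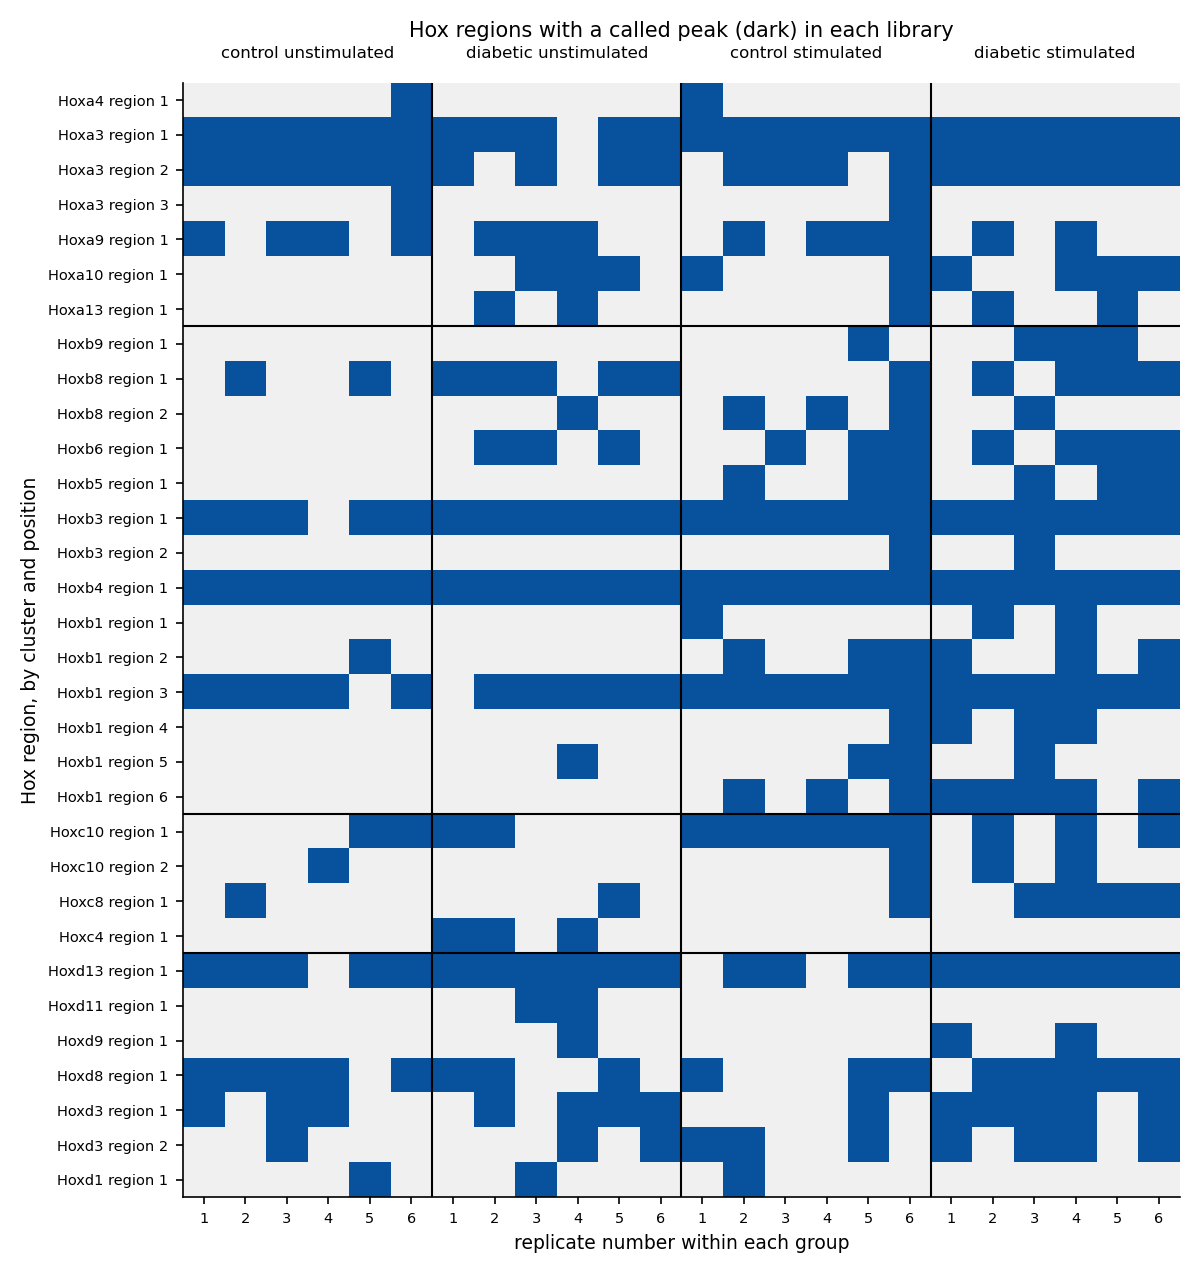
Rows are 32 Hox regions by cluster and position, columns the 24 libraries by group and replicate, and dark cells mark a called peak. Hoxb4 region 1 is dark in all 24 columns, and Hoxb1 region 6 and Hoxb5 region 1 only in stimulated ones.

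The response to LPS plus IFNγ was compared next. The Hoxb cluster held more peaks per library after stimulation, while the libraries as a whole held fewer. Control unstimulated libraries had 3 to 4 Hoxb peaks (median 4, mean 3.67 ± 0.516, SD, n = 6) and control stimulated ones 4 to 14 (median 6.5, mean 7.17 ± 3.82). Diabetic unstimulated libraries had 3 to 6 (median 5, mean 4.67 ± 1.03) and diabetic stimulated ones 7 to 11 (median 9, mean 9.0 ± 1.41). The diabetic arms did not overlap, and the control arms met at 4, with the value of 14 in control stimulated replicate 6. Over both phenotypes the mean Hoxb number was 1.94 times higher after stimulation, and the number of all peaks 0.905 times as high. Without the 3 libraries of highest background level, stimulated libraries had 7.33 ± 2.45 Hoxb peaks, against 4.17 ± 0.937 unstimulated. Most of the Hoxb difference lay outside the genes: with peaks within 10 kb of a Hox gene only, it was 1.5 peaks per library in place of 3.92. Hoxa went from 6.33 ± 1.56 to 5.5 ± 1.51 peaks per library, Hoxc from 1.0 ± 0.739 to 1.67 ± 0.985 and Hoxd from 3.17 ± 0.937 to 3.08 ± 1.62, all with overlapping libraries. With all lists trimmed to equal length, the Hoxa difference of -0.83 became 0.33. No test was run on these sums over members. In 10 of 12 unstimulated libraries Hoxa had more peaks than Hoxb (2 ties), and in 10 of 12 stimulated libraries Hoxb had more than Hoxa.

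**Figure D4:**
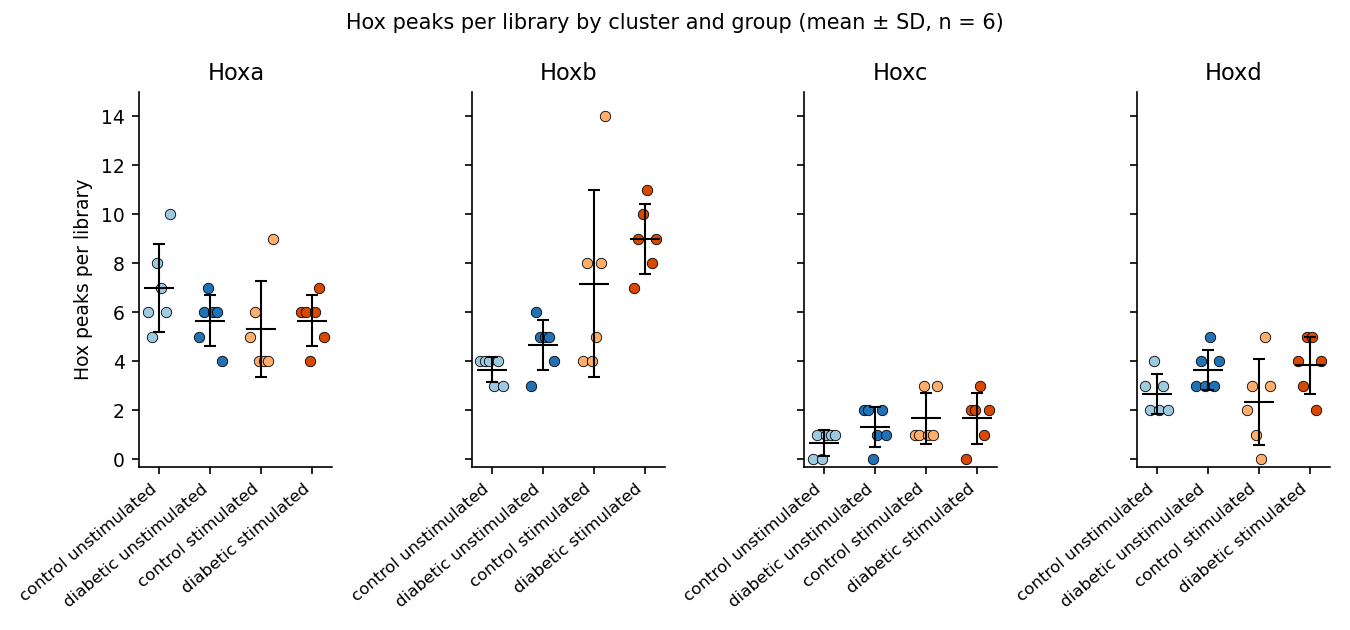
The vertical axis is the number of Hox peaks per library in each cluster, with 1 point per library and bars for the mean ± SD of 6 libraries in each of the 4 groups. Hoxb has 3 to 6 peaks in unstimulated and 4 to 14 in stimulated libraries, overlapping between states in controls and not in diabetic samples, and the other clusters overlap in both.

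Region by region, 16 of the 35 Hox regions had enough detections to be tested over both phenotypes, 12 libraries against 12. By the two-sided Fisher's exact test, with Benjamini-Hochberg adjustment over all 31219 testable regions of the genome, 2 were gained after stimulation and none was lost. The 2 of 16 stand against a background in which 28.1% of all tested regions were called, 9.19% as gained and 18.9% as lost. Hoxb1 region 6 (chr11:96413706-96414175), 45606 bp downstream of Hoxb1 towards Skap1, was found in 0 of 12 unstimulated libraries and in 8 of 12 stimulated ones, 3 control and 5 diabetic (exact p = 0.00135, adjusted p = 0.0101). Hoxb5 region 1 (chr11:96303116-96303419), 252 bp from Hoxb5 and within the noncoding Hoxb5os, was found in 0 of 12 and 6 of 12 libraries, 3 in each phenotype (exact p = 0.0137, adjusted p = 0.0489). Hoxb5 is a homeobox gene known from blood stem cells. Both sets of stimulated peaks were weak, with 6 to 13 and 8 to 15 tags at the summit.

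Neither call was independent of how the peaks were taken. With only peaks of −log10 q-value 5 or more, Hoxb1 region 6 was found in 4 stimulated libraries and Hoxb5 region 1 in 3, neither was called, and 1 other Hox region was called, as lost. With lists of equal length both calls ended, and 3 other regions were gained: Hoxb1 region 3 (5 to 12 libraries, adjusted p = 0.0219), Hoxc10 region 1 (0 to 6, adjusted p = 0.0472) and Hoxa3 region 2 (2 to 9, adjusted p = 0.0472), each by Fisher's exact test. The share of all tested regions called under these settings is not given here, so these calls have no background beside them. Hoxb1 region 6 passed with any 1 library left out (adjusted p by Fisher's exact test 0.00401 to 0.0110) and without the 3 libraries of highest background level (0.0317). Hoxb5 region 1 did not pass without those 3 (adjusted p by Fisher's exact test 0.0667), nor without control stimulated replicate 2 or 5 or any 1 of the 12 unstimulated libraries (at most 0.0522).

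The other 5 regions of the interval between Hoxb1 and Skap1 were not called. Of these, only region 2 had a number of detections that could be tested (Fisher's exact test, adjusted p = 0.162). Hoxb1 region 1 was found in 0 unstimulated and 3 stimulated libraries, region 2 in 1 and 6, region 3 in 10 and 12, region 4 in 0 and 4, and region 5 in 1 and 3. Elsewhere in Hoxb, the region of Hoxb9 was found in 0 and 4 libraries, that of Hoxb6 in 3 and 7, Hoxb8 region 1 in 7 and 5, Hoxb8 region 2 in 1 and 4, Hoxb3 region 1 in 11 and 12, Hoxb3 region 2 in 0 and 2 and Hoxb4 region 1 in 12 and 12.

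Peaks were also counted per gene. Hoxb1 had 0 to 2 peaks per unstimulated library (median 1, mean 1.0 ± 0.426, SD, n = 12) and 1 to 5 per stimulated library (median 3, mean 3.08 ± 1.38). In controls all 6 unstimulated libraries had 1 and the stimulated ones 1 to 5 (median 2.5), and in diabetic samples the unstimulated ones had 0 to 2 (median 1) and the stimulated ones 1 to 5 (median 4). Both phenotypes overlapped at 1 peak between states, through control stimulated replicate 3 and diabetic stimulated replicate 5. Hoxb1 rose by the two-sided exact permutation test (p = 0.000156, adjusted p = 0.00537 over all 12690 testable genes). Of 14 tested Hox genes, 2 were called, 1 with more peaks (Hoxb1) and 1 with fewer, where 12.8% of all tested genes were called, 2.73% with more and 10.1% with fewer peaks. Hoxb5 (0 to 0.5 peaks per library on average) reached an exact permutation p of 0.0137 without adjustment, as did 25.9% of all tested genes at an unadjusted p under 0.05. All 6 Hoxb1 regions lie more than 15 kb outside the gene body, so Hoxb1 here names the nearest gene and not a known target. Limited to peaks within 10 kb, the Hoxb1 call ended and 1 Hox gene, with fewer peaks, was called.

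**Figure D5:**
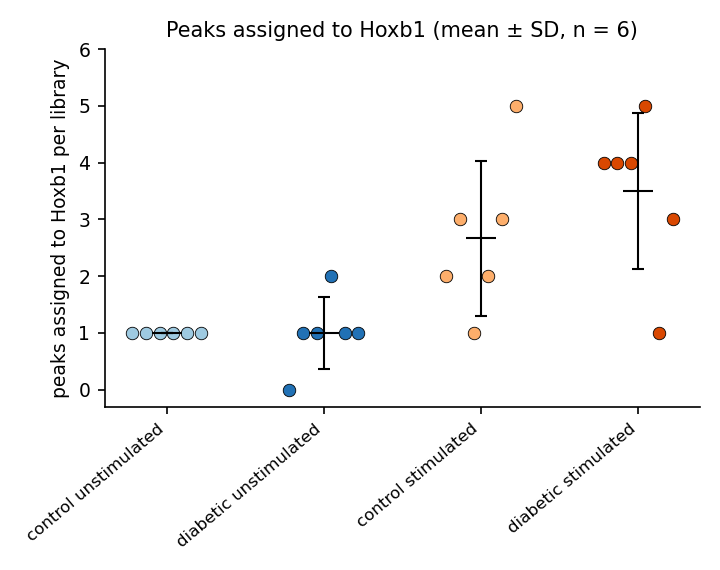
The vertical axis gives the number of peaks assigned to Hoxb1 in each library, with 1 point per library and bars for the mean ± SD of 6 libraries in each of the 4 groups. Hoxb1 has at most 2 peaks in any unstimulated library and up to 5 in stimulated ones.

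Within each phenotype alone the Hox changes did not pass. In controls 1 Hox region was testable and 0 were called by Fisher's exact test (0 at an unadjusted p under 0.05), against 35.9% of tested regions in the genome (8.41% gained, 27.5% lost). In diabetic samples 8 were testable and 0 were called, with 1 at an unadjusted p under 0.05, against 8.92% called in the genome (5.47% gained, 3.44% lost) and 27.1% at that unadjusted p. That 1 was Hoxb1 region 6, which was called without diabetic stimulated replicate 5 (5 of 5 stimulated and 0 of 6 unstimulated libraries, Fisher's exact test, adjusted p = 0.0251). Replicate 5 was the only diabetic stimulated library without this region, so leaving it out favours the call. In 11 of the 12 runs with 1 diabetic library left out, the count of called Hox regions stayed at 0. By peak number, 0 of 4 tested Hox genes were called in controls and 0 of 9 in diabetic samples by the exact permutation test, with 2 and 1 at an unadjusted p under 0.05. Of all genes 0% were called in either, and 24.4% and 13.5% reached that unadjusted p. Hoxb1 was among them in both (exact permutation p = 0.0152 in controls and 0.0130 in diabetic samples). The phenotypes' responses were compared directly with Zelen's exact test, which called 0 of 8 tested Hox regions, with 0 at an unadjusted p under 0.05 (0% called and 2.45% at that p among all tested regions).

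Diabetic and control macrophages did not differ at any Hox region past the threshold. By Fisher's exact test, 0 of 4 tested Hox regions were called in unstimulated libraries, 0 of 10 in stimulated ones and 0 of 16 with states pooled. At an unadjusted p under 0.05 the Hox counts were 0, 0 and 1, where the genome had 1.56%, 3.02% and 2.13% of its tested regions, and 0% were called in each of these comparisons. The 1 was Hoxb8 region 1 (chr11:96278828-96279174, 479 bp from Hoxb8, a gene used to immortalise myeloid progenitors), found in 3 of 12 control and 9 of 12 diabetic libraries (exact p = 0.0391, adjusted p = 1.0). By the exact permutation test on peak numbers, 0 of 4, 0 of 10 and 0 of 14 Hox genes were called, with 1, 0 and 0 at an unadjusted p under 0.05. The genome had 0% called in each, and 2.13%, 6.55% and 2.99% at that unadjusted p. All Hox peaks together numbered 14 ± 1.67 and 15.3 ± 2.07 per control and diabetic unstimulated library, and 16.5 ± 6.98 and 20.2 ± 2.79 per stimulated one, with overlapping libraries. With states pooled, each mouse sample was divided between both states, so the 12 libraries of a phenotype are not 12 separate sources. The pooled tests of regions and genes treated them as separate, and their unadjusted p-values can be too small. A miss of the threshold at these sizes does not show that the phenotypes were alike.

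The regulators of Hox chromatin were described through lists of genes, for the pooled comparison of states and the same region test. Regions of the Cdx genes, retinoid receptors and other Hox regulators gave 3 gains and 2 losses of 24 tested, where 9.19% of all tested regions were gained and 18.9% lost. Among them a region 11626 bp from Cdx4, a direct activator of Hox genes, went from 0 to 11 libraries (adjusted p = 0.000303). Regions of Rara, a retinoic acid receptor, went both ways (0 to 8, adjusted p = 0.0101, and 12 to 1, adjusted p = 0.000303). Trithorax and MLL complex genes had 3 gained and 8 lost of 31, with Kmt2a, the MLL methyltransferase, gaining a region (0 to 7 libraries, adjusted p = 0.0235) and Dot1l, an H3K79 methyltransferase recruited by MLL fusions, losing one (12 to 1, adjusted p = 0.000303). Polycomb genes had 1 gained and 6 lost of 33, with Jarid2, a PRC2 partner, losing 2 (9 to 0, adjusted p = 0.00388, and 6 to 0, adjusted p = 0.0489). Of 21 tested regions at the Hox cofactors of the Meis and Pbx families none was gained and 1, at Meis2, was lost (11 to 4, adjusted p = 0.0437). The genes flanking Hoxb had 1 tested region and no call, those flanking Hoxa 4 gained and 2 lost of 20, of which 3 gains and both losses were at Snx10, a sorting nexin gene. Those flanking Hoxc had 1 gained of 14, at Cbx5, and those flanking Hoxd 1 lost of 4, at Hnrnpa3.

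Marker genes of macrophages and of other cells that could accompany them were read against the same background, 9.19% of tested regions gained and 18.9% lost. Among macrophage markers 5 of 20 tested regions were lost and 0 gained, and the list summed to 38 to 56 and 41 to 55 peaks in control and diabetic stimulated libraries, and 50 to 57 and 49 to 61 in unstimulated ones. Of 21 tested regions of stromal and fibroblast markers, cells in which Hox clusters are known to be open, 4 were gained and 1 was lost. A region nearest to Dcn went from 0 to 11 libraries and one in the Prrx1 body from 1 to 12 (adjusted p = 0.000303 each, Fisher's exact test). The gained Dcn regions lay 32818 to 36936 bp from the gene. The 1 loss was another region of Prrx1 (12 to 6, adjusted p = 0.0489, Fisher's exact test), and Lum and Lepr had no peak in any library. The summed number of stromal marker peaks per library was 13 to 23 and 15 to 21 in control and diabetic unstimulated libraries, and 14 to 21 and 12 to 27 in stimulated ones. Of 40 tested regions of stem and progenitor markers 4 were gained and 3 lost, with summed peaks of 40 to 53 and 34 to 57 unstimulated, and 29 to 44 and 37 to 61 stimulated. Neutrophil markers had 2 gained and 2 lost of 7, with Elane, Ly6g and Ngp without a peak, and erythroid markers 0 gained and 1 lost of 1, with Hba-a1, Hbb-bs and Gata1 without a peak. B cell markers had no call in 11 tested regions, and T cell markers 1 lost of 1. The part of these cells, and of depth, in the Hox changes was not tested.

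The distance limit of 50 kb shapes these counts. Of the Hoxb peaks counted, 13 lay beyond 40 kb, the farthest at 45815 bp, and Hoxb1 regions 5 and 6 are in that range. Beyond the limit lay 0 Hoxb peaks, 0 Hoxd peaks, 11 Hoxa peaks and 1 Hoxc peak, the last at 50552 bp from Hoxc4.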

How the data were processed

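The authors deposited 1 narrowPeak list per library, called separately. Each peak carries the authors' score, a fold enrichment (a ratio to local background), and −log10 p- and q-values; these served only to describe or filter peaks within a list. Per the submitters' processing notes, Bowtie2 2.2.6, MACS2 2.1.1, FastQC 0.11.3, Trim Galore, DiffBind 2.4.8, edgeR and the mm10 build are named; what each did, its settings and any shift for the Tn5 offset: not given in the sources used here. Per the labels' protocols, 50000 cells per replicate were used, fragments above 1200 bp were removed, and 50-base single reads were sequenced. Python 3.11.15 with numpy 2.4.6, pandas 2.3.3 and scipy 1.17.1 did the rest. Genes were taken from a RefSeq table (GRCm38.p6), which gives no exons, introns or strand; equally near genes were settled by the smaller body.

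Peaks of the 24 lists were merged at an overlap of 1 bp, and regions in at least 2 libraries were kept, each scored as found or not found per library. Detections were compared by two-sided Fisher's exact tests, the interaction by Zelen's exact test, and peak numbers per gene by two-sided exact permutation tests. Benjamini-Hochberg adjustment ran over all features of the genome that could reach an unadjusted p of 0.05, at a threshold of 0.05. With 6 libraries against 6 the smallest p is 0.00216. The scripts were tested on simulated data. Tag numbers at summits were solved from the deposited fold and −log10 p-value. Named regions were those called in any comparison, those in all 24 libraries, and the 2 most frequent of each cluster; other Hox regions in the text were named after their values were seen; of other genes, listed genes with a called region were eligible, at most 3 per direction and list. The members and lists were chosen with earlier results of these data known. Groups and replicate numbers came from the labels, which do not tie a number to a mouse, so p-values measure the spread between these samples. Deviations of same-numbered libraries were hardly correlated (-0.0098 to 0.0090), and the highest correlation under any number was 0.0286. That check cannot show whether the numbers pair the libraries, and comparisons were unpaired. Alternatives were lists of equal length (41385 peaks), a minimum −log10 q-value of 5, peaks covering at least 50% of a region, adjustment over all regions, a 10 kb limit, a replicate block, the other factor as a stratum, each library left out and, chosen after seeing the data, the 3 libraries of highest background level left out. Genome sequence was not used here. The values of 1 Hox gene and its regions are in the counts but are not reported here singly or drawn.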

Additional observations from a re-analysis of the deposited data

How the results depend on the processing

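The pooled count of 2 Hox regions called after stimulation fell to 1 with a minimum −log10 q-value of 5 (0 gained, 1 lost), with peaks covering at least 50% of the region, with adjustment over all regions, within 10 kb of a Hox gene, with phenotype as a stratum and without the 3 libraries of highest background level; lists of equal length gave 3, none of them shared with the 2; too few detections were left to test Hoxb1 region 6 with lists of equal length, and both regions with that minimum q-value. Leaving out each library in turn gave 1 to 3 regions. Shares over all tested features are given for the main setting only. Counts under the other settings therefore show how stable the calls were, and are not results about Hox regions or genes. In controls the count of 0 became 1 with lists of equal length and with that minimum q-value, and ranged from 0 to 1 with each library left out; in diabetic samples it ranged from 0 to 1. Genes called by peak number went from 2 to 1 within 10 kb. The stimulated minus unstimulated difference in Hoxb peaks, 3.92, was 1.5 within 10 kb. The adjusted p of the exact permutation test with each library left out ran from 0.00224 to 0.00863 for Hoxb1.

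With the replicate number as a block (exact McNemar test), 1 Hox region was called in the pooled comparison, Hoxb1 region 6 (adjusted p = 0.0319), and Hoxb5 region 1 was not (0.0653). In the exact sign-flip test with the block, Hoxb1 remained called (adjusted p = 0.0350). Whether those numbers pair the libraries is not known. Within 1 phenotype, 6 pairs allow no exact McNemar p below 0.0313. Comparisons of phenotype and the interaction gave 0 Hox calls in every alternative run. Hox peaks held few tags (median 11), so a site just under the calling threshold in some libraries counts as absent there; the cause of each change between settings was not tested.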
